A study of Mus musculus with 16 samples.

Results

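The genes described here encode the proteins that hold neighbouring endothelial cells (ECs) together and set how leaky a vessel is. They are 9 genes of the 43346 in the deposited table, taken by symbol: Cdh5, Cldn5, Ocln, Esam, Jam2, Jam3, F11r, Tjp1 and Pecam1. RNA was measured in ECs sorted from the lungs of FVB mice, both sexes, that carried a Col1a1-GFP transgene in every group. Young Sham (n = 5) and Young Bleo (n = 4) were mice 2 months old given PBS or bleomycin into the trachea, and Aged Sham (n = 3) and Aged Bleo (n = 4) were mice 18 months old treated likewise. Bleomycin damages DNA and leaves the lung scarred. Lungs were taken 30 days later, and the sorted cells were CD31+, CD45-, EpCAM- and GFP-, so cells that expressed the collagen reporter were removed. CD31 is the product of Pecam1, so that its level in these cells was set in part by the sort.

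Endothelial cells meet at adherens junctions, built on VE-cadherin, and at tight junctions, built on claudins, occludin and the junctional adhesion molecules. VE-cadherin binds its like on the next cell and is anchored to actin through catenins, while claudins seal the cleft and ZO proteins hold the tight junction strands at the membrane. In the lung this barrier keeps plasma out of the airspaces, and it differs between vessel types. Lung capillaries hold general capillary cells and aerocytes, the thin cells across which gas is exchanged.

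Expression of all 9 genes was well within range of the assay. Total counts per library ran from 20907113 to 71035301, and the lowest count of any of the 9 genes in any library was 295. All 9 were tested in every comparison by DESeq2, which gave the normalized counts, the log2 fold changes and the adjusted p-values below. To be called, a gene had to reach an adjusted p (Benjamini-Hochberg) no higher than 0.05 and a log2 fold change of 0.5 or more in size. A fold change is the first group named over the second. Each library is labelled as a separate sample and, as the study's methods describe the mouse data, comes from its own mouse.

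On mm10, Cdh5 (ENSMUSG00000031871) lies on chromosome 8 from 104101625 to 104144502, Esam (ENSMUSG00000001946) on chromosome 9 from 37528078 to 37538319 and Pecam1 (ENSMUSG00000020717) on chromosome 11 from 106654217 to 106750628. Cldn5 (ENSMUSG00000041378) lies on chromosome 16 from 18776847 to 18778260, and Jam2 (ENSMUSG00000053062) on the same chromosome from 84774123 to 84825928. Ocln (ENSMUSG00000021638) lies on chromosome 13 from 100496507 to 100552718, Jam3 (ENSMUSG00000031990) on chromosome 9 from 27097385 to 27155421, F11r (ENSMUSG00000038235) on chromosome 1 from 171437535 to 171464603 and Tjp1 (ENSMUSG00000030516) on chromosome 7 from 65296165 to 65371239. All 9 are protein-coding. The exons of Jam3 overlap those of the antisense gene Gm48796, and as the strand setting of the counting is not stated, reads of that pair cannot be told apart.

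The RefSeq promoter table (GRCm38.p6) matched 4 of the 9 genes, and for Cldn5 and Ocln its start site was the one in the deposited table. Of the members called in young mice after bleomycin, these had such a window. The 250 bases before each start follow, 5′ to 3′ on the strand of the gene, with CACCC or its reverse complement GGGTG, the core bound by Krüppel-like factors, in capitals. Cldn5 is read from chr16:18776597-18776846 on the plus strand and Ocln from chr13:100552719-100552968 on the minus strand.
Cldn5: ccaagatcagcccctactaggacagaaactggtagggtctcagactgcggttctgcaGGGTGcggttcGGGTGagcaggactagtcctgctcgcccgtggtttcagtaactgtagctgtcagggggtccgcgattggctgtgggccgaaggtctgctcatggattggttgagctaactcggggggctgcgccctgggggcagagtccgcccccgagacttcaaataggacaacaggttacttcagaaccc
Ocln: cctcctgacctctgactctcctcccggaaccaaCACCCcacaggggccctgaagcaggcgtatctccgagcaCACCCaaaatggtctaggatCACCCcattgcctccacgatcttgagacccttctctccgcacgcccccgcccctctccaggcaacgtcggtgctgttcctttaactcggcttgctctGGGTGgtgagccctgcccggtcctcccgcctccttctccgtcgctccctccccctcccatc

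CACCC, on either strand, occurred 2 times before Cldn5 and 4 times before Ocln, and it is present in 52.0% of the 32851 windows of this length in the table. GGAA or TTCC, the core bound by ETS factors, occurred 0 times before Cldn5 and 2 times before Ocln, against 93.4% of windows with at least 1 match. The table holds another Ocln start, at 100552498, whose window has 0 CACCC and 1 GGAA match. These matches describe the letters of these windows and nothing more.

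The levels of the 9 genes, compared per length as FPKM (fragments scaled by transcript length and library total), spanned a wide range. Cldn5 was the most abundant, with a mean FPKM of 1159 over the 16 libraries, the level of rank 10 among all genes. Esam followed at 278 FPKM, and its range overlapped with neither that of Cldn5 nor that of the gene below it. Pecam1 at 111, Cdh5 at 88.1 and F11r at 75.4 FPKM formed a middle tier with overlapping ranges. Pecam1 was above Cdh5 in 13 of 16 libraries, and Cdh5 was above F11r in 12 of 16.

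The lower tier held Jam2 at 17.8, Ocln at 9.76 and Tjp1 at 9.51 mean FPKM, and their order was not stable, as Jam2 exceeded Ocln in 9 of 16 libraries and Ocln exceeded Tjp1 in 9 of 16. Jam3 was the lowest in all 16 libraries, with a mean FPKM of 3.04. The order of neighbours changed with injury. In Young Bleo F11r, at 89.4 FPKM, stood above Cdh5, at 79.2, in 3 of 4 libraries, and Jam2, at 31.7, stood above Tjp1, at 9.43, in 4 of 4.

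**Figure D1:**
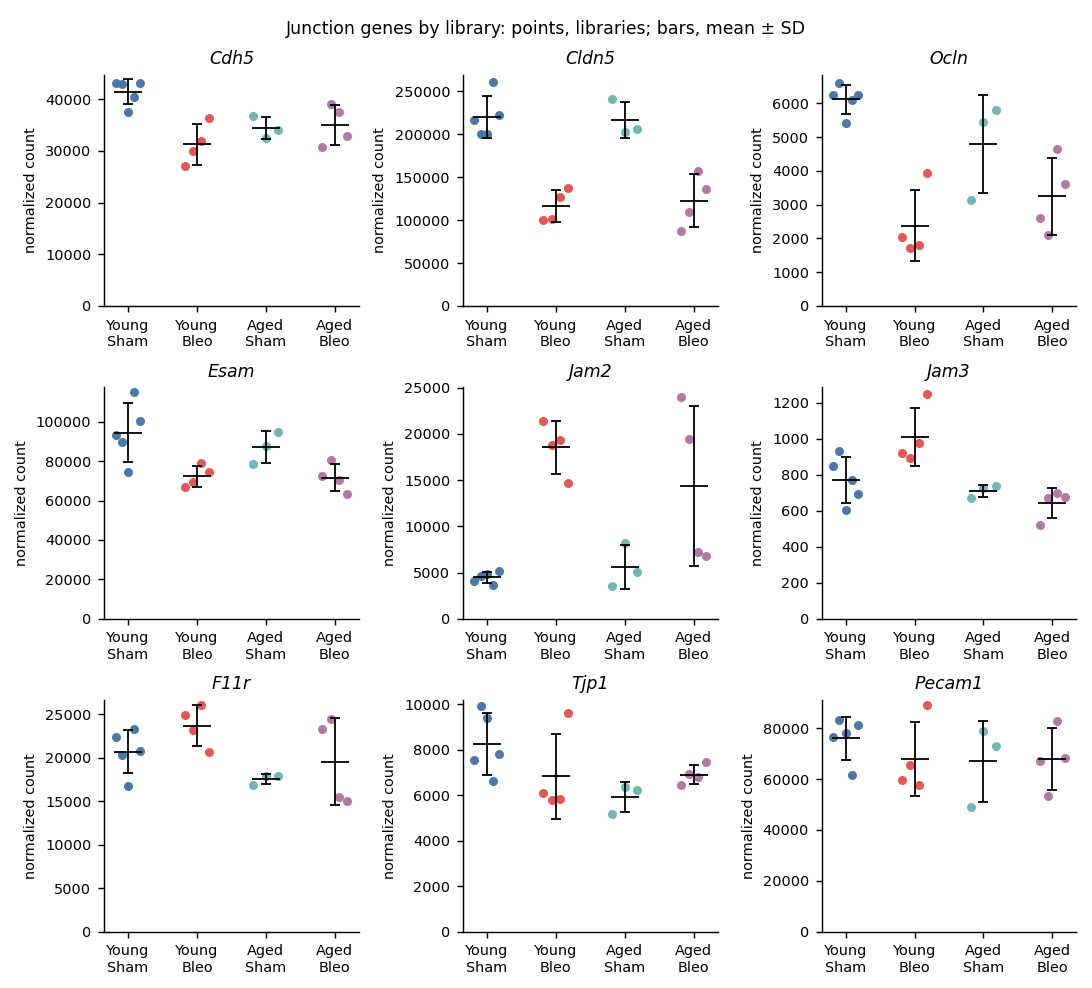
Normalized counts of the 9 junction genes in each of the 16 libraries, by group, on linear axes that start at 0. Points are libraries and bars give the mean and SD. Cldn5 and Ocln sit lower and Jam2 higher in Young Bleo than in every Young Sham library, and Jam2 is split in Aged Bleo, with libraries at 6772 and 7233 and others at 19407 and 23992.

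The first comparison asked what injury did to these genes in young mice. In Young Bleo against Young Sham, 3 of the 9 genes were called. Jam2 rose 4.14-fold, while Cldn5 fell 1.89-fold and Ocln fell 2.57-fold. Over all genes tested in this comparison 7.29% were called higher and 6.16% lower, and 9.78% were called in either direction by edgeR, which called the same 3 members. The median log2 fold change of the 9 genes was -0.27, beside 0.01 for all genes tested.

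Cldn5 encodes claudin-5, the main sealing claudin of endothelium. Its normalized counts were 216882, 199939, 200848, 260953 and 222354 in Young Sham and 99905, 101495, 126892 and 136915 in Young Bleo. The groups did not overlap. The log2 fold change was -0.92 (SE 0.170, adjusted p = 4.4e-06). Even after this fall Cldn5 remained by far the leading claudin: it made up 99.2 ± 0.148% of the FPKM of the 23 claudin genes in Young Bleo (SD, n = 4), against 99.6 ± 0.110% in Young Sham (SD, n = 5).

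Ocln encodes occludin, a tight junction protein with 4 membrane passes. Its normalized counts were 6257, 6587, 5415, 6098 and 6244 in Young Sham and 2054, 1728, 1799 and 3943 in Young Bleo. Replicate 20 stood well above the other Young Bleo libraries and still below every Young Sham library. The log2 fold change was -1.36 (SE 0.277, adjusted p = 4.4e-05), and it ranged from -1.72 to -1.23 when each library was left out in turn.

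Jam2 encodes JAM-B, an adhesion molecule of the immunoglobulin family that is enriched in venous and lymphatic endothelium and pairs with JAM-C across the junction. Its normalized counts were 4126, 4604, 4894, 3622 and 5122 in Young Sham and 21416, 18752, 19338 and 14648 in Young Bleo. Every injured library was above every uninjured one, with replicate 20 the lowest of the injured. The log2 fold change was 2.05 (SE 0.337, adjusted p = 1.9e-07).

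Cdh5, which encodes VE-cadherin, and Esam, an adhesion molecule of endothelium and platelets, passed the p-value limit in the same comparison but missed the fold limit. Cdh5 averaged 41457 ± 2439 counts without injury (SD, n = 5) and 31267 ± 3922 after it (SD, n = 4). Its counts did not overlap between the groups, and the log2 fold change was -0.41 (SE 0.108, adjusted p = 0.0027; edgeR adjusted p = 0.037). Esam averaged 94492 ± 14780 and 72425 ± 5308, with overlapping groups (log2 fold change -0.38, SE 0.127, adjusted p = 0.021; edgeR adjusted p = 0.068).

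The remaining 4 members were not called. Jam3, which encodes JAM-C, the partner of JAM-B, differed by 0.39 on the log2 scale (SE 0.157, adjusted p = 0.072). F11r, which encodes JAM-A of endothelium, epithelium and platelets, had a log2 fold change of 0.19 with a 95% interval of -0.12 to 0.51. Tjp1, which encodes the scaffold ZO-1, gave -0.27 (95% interval -0.61 to 0.06; -0.48 with a DESeq2 adjusted p of 0.0050 without Young Bleo replicate 20, still under the fold limit), and the sort gene Pecam1 gave -0.16 (95% interval -0.52 to 0.20). These intervals leave room for differences near the fold limit.

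The next comparison asked about injury in aged mice, against their own sham group. In Aged Bleo against Aged Sham DESeq2 called 2 of the 9 genes, Cldn5 lower and Jam2 higher, where 2.44% and 3.39% of all genes tested were called lower and higher. The median log2 fold change of the 9 genes was 0.02, beside 0.01 for all genes. With edgeR 0 of the 9 were called (2 at an unadjusted p under 0.05), against 0.797% of all genes, although its log2 fold changes had the same signs and near-equal sizes, so that this comparison of 4 and 3 libraries rests on the choice of test.

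Cldn5 had normalized counts of 241239, 202882 and 206408 in Aged Sham, where Aged Bleo had 87612, 109299, 157529 and 136510. The groups did not overlap, and the log2 fold change was -0.82 (SE 0.193, adjusted p = 0.0017; edgeR adjusted p = 0.050, just above the limit). It kept its DESeq2 call when any single library was left out.

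Jam2 was at 3509, 8253 and 5028 in Aged Sham and at 23992, 19407, 7233 and 6772 in Aged Bleo. Replicates 1 and 2 of Aged Bleo were as high as the Young Bleo libraries, while replicates 3 and 5 lay within the range of Aged Sham, so that the groups overlapped. The log2 fold change was 1.36 (SE 0.383, adjusted p = 0.012; edgeR adjusted p = 0.087). The call was lost without Aged Bleo replicate 1 (adjusted p = 0.124), Aged Bleo replicate 2 (0.064), Aged Sham replicate 13 (0.099) or Aged Sham replicate 15 (0.072), in DESeq2 fits with Benjamini-Hochberg adjustment.

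Ocln was at 3139, 5440 and 5810 in Aged Sham and at 2601, 2101, 4658 and 3621 in Aged Bleo. Replicate 13 of Aged Sham fell among the injured libraries, and the groups overlapped. The log2 fold change was -0.56 (SE 0.315, adjusted p = 0.325), with a 95% interval of -1.18 to 0.05.

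The other 6 members were not called in Aged Bleo against Aged Sham. Cdh5 gave a log2 fold change of 0.03 (95% interval -0.21 to 0.27) and Pecam1 one of 0.02 (95% interval -0.39 to 0.43). F11r had counts of 23253 and 24465 in Aged Bleo replicates 1 and 2 and 15469 and 15011 in replicates 3 and 5, on either side of the 16903 to 17892 of Aged Sham, and a log2 fold change of 0.15 (95% interval -0.21 to 0.51). The counts of Tjp1 did not overlap, being 5153 to 6371 in Aged Sham and 6442 to 7440 in Aged Bleo, yet its fitted log2 difference was 0.22 (SE 0.196, adjusted p = 0.608).

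**Figure D2:**
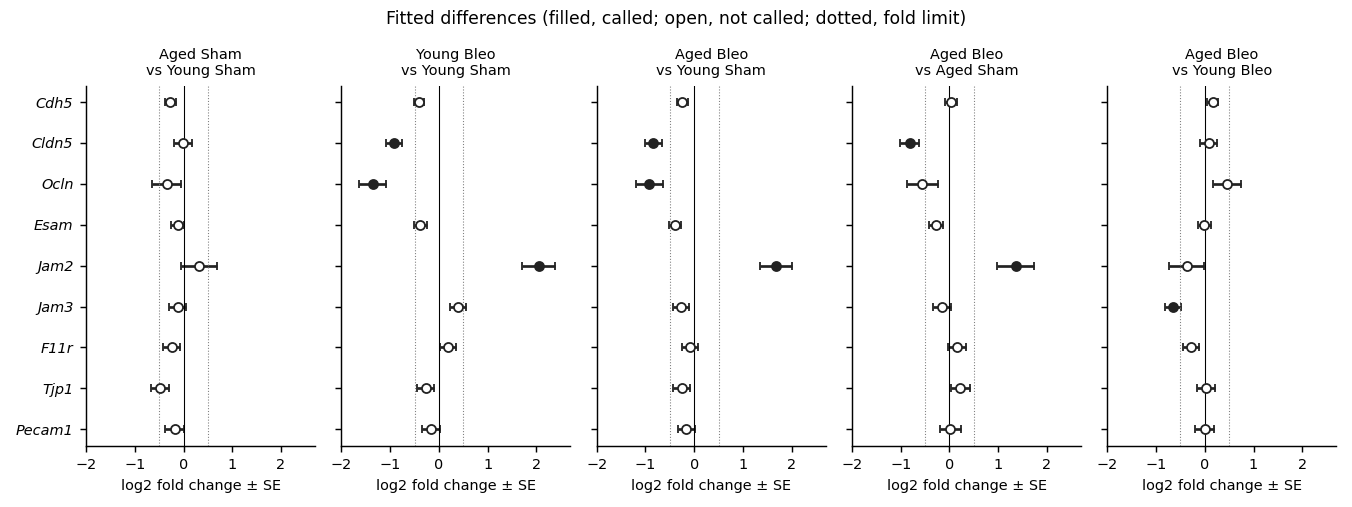
Log2 fold changes of the 9 genes in the 5 pairwise comparisons, with the standard error of the DESeq2 fit. Filled points were called, and dotted lines mark the fold limit of 0.5. Jam2 lies at 2.05, 1.68 and 1.36 and Cldn5 at -0.92, -0.84 and -0.82 in the 3 comparisons of injured with sham libraries.

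The study also set injured aged ECs against young sham ECs, a comparison that mixes age with injury and shares its Young Sham libraries with the young comparison above. Here 3 of the 9 genes were called, Cldn5 and Ocln lower and Jam2 higher, against 3.14% of all genes lower and 6.58% higher. The log2 fold changes were -0.84 (SE 0.170, adjusted p = 4.4e-05) for Cldn5, -0.92 (SE 0.277, adjusted p = 0.014) for Ocln and 1.68 (SE 0.337, adjusted p = 4.0e-05) for Jam2, and none of these genes overlapped between the groups. By edgeR 5.69% of all genes were called, and Ocln was not among them (adjusted p = 0.060). Ocln was also not called by DESeq2 without Aged Bleo replicate 1 (log2 fold change -0.82, adjusted p = 0.085) or replicate 2 (-0.75, adjusted p = 0.092).

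Age without injury moved none of the 9 genes past the limits of the test. In Aged Sham against Young Sham 0 of 9 were called by DESeq2, which called 3.35% of all genes, and 0 by edgeR, which called 0.862%. By either tool 2 of the 9 had an unadjusted p under 0.05. Of the 9 log2 fold changes 8 were negative, with a median of -0.18, beside 0.02 for all genes tested. The lowest DESeq2 p-value was that of Tjp1, whose counts averaged 8259 ± 1370 at 2 months (SD, n = 5) and 5924 ± 670 at 18 months (SD, n = 3), with no overlap (log2 fold change -0.48, SE 0.187, adjusted p = 0.152). With each library left out in turn, the DESeq2 adjusted p of Tjp1 ran from 0.022 to 0.448. Its log2 fold change ran from -0.55 to -0.39, and 0 of the 16 fits called it. Cdh5 also did not overlap between these groups, with a log2 difference of -0.27 (SE 0.117, adjusted p = 0.226). For Cldn5 the difference was -0.02 with a 95% interval of -0.38 to 0.34.

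Among injured mice, Jam3 was the only member called between ages. Jam3 was at 924, 896, 979 and 1250 in Young Bleo and at 520, 671, 699 and 679 in Aged Bleo, with no overlap. The log2 fold change was -0.66 (SE 0.165, adjusted p = 0.014), where 0.985% of all genes were called. It was not called by edgeR (adjusted p = 0.222), which called 0.0437% of all genes, nor by DESeq2 without Young Bleo replicate 19 (adjusted p = 0.050, just above the limit). The 8 other members in Aged Bleo against Young Bleo had log2 fold changes from -0.37 in Jam2 to 0.45 in Ocln.

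Whether injury acted differently with age was tested as an interaction, in which the young response to bleomycin is subtracted from the aged one. By DESeq2 0 of the 9 genes were called, against 0.362% of all genes, and by edgeR 0 as well, against 0.00546% of all genes, with 2 at an unadjusted p under 0.05 by either tool. The estimates were -0.69 for Jam2 (95% interval -1.69 to 0.31), 0.80 for Ocln (95% interval -0.02 to 1.62) and 0.10 for Cldn5 (95% interval -0.40 to 0.60). The 2 with an unadjusted p under 0.05 were Cdh5, at 0.43 (95% interval 0.11 to 0.75, DESeq2 adjusted p = 0.344), and Jam3, at -0.54 (95% interval -1.01 to -0.07, adjusted p = 0.494). The intervals of Jam2 and Ocln were the widest of the 9. Without Young Bleo replicate 20, whose Tjp1 count of 9623 compared with 5780 to 6095 in the rest of its group, Tjp1 was called with a difference of 0.70 (DESeq2 adjusted p = 0.041).

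The make-up of the junctional adhesion molecules was compared within each library, with no test. Of the FPKM summed over Esam, F11r, Jam2 and Jam3, Jam2 made up 1.87 ± 0.462% in the young sham libraries (SD, n = 5) and 8.38 ± 1.31% in the young injured ones (SD, n = 4). Among aged mice its share was 2.47 ± 1.00% after sham treatment (SD, n = 3) and 6.64 ± 3.32% after bleomycin (SD, n = 4). Esam made up 78.7 ± 1.30% in Young Sham and 67.0 ± 2.92% in Young Bleo, with ranges of 77.5 to 80.5% and 63.6 to 70.7% that did not overlap. In Aged Bleo replicates 3 and 5 Jam2 was at 3.87% and 3.95%, just above the 1.73 to 3.61% of Aged Sham. Esam was at 77.0% and 75.8% in these libraries, just below the 78.4 to 80.8% of Aged Sham. In every group Esam held the largest share and F11r the next, and the share of Jam3 averaged between 0.733 and 1.06%.

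**Figure D3:**
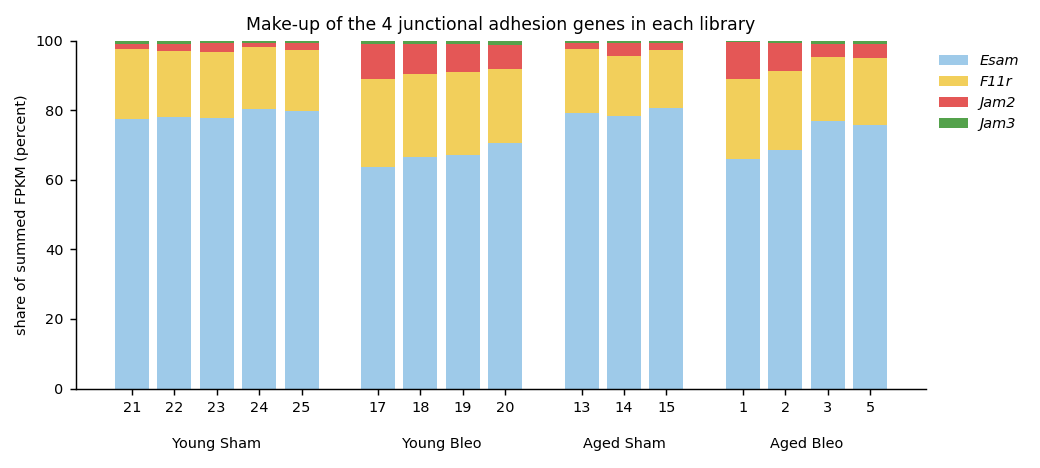
Share of each of the 4 junctional adhesion genes in their summed FPKM, as stacked bars for each library, numbered by replicate. The Jam2 share averages 1.87% in Young Sham and runs from 6.80 to 9.94% in Young Bleo, while in Aged Bleo it runs from 3.87 to 10.7%.

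The other members were also set against Cdh5 in the same library. The FPKM ratio of Cldn5 to Cdh5 was 15.0 ± 1.90 in Young Sham and 10.5 ± 0.695 in Young Bleo, with ranges of 13.1 to 18.2 and 9.56 to 11.2. In aged mice it was 17.7 ± 0.699 after sham treatment and 9.87 ± 2.20 after bleomycin. The ratio of Ocln to Cdh5 was even across Young Sham, at 0.136 to 0.145, and ran from 0.0534 to 0.102 in Young Bleo. For aged mice this ratio ran from 0.0806 to 0.161 after sham treatment and from 0.0508 to 0.117 after bleomycin, with overlap. The ratio of Esam to Cdh5 was 3.17 ± 0.467 in Young Sham and 3.24 ± 0.285 in Young Bleo. In aged mice it was 3.54 ± 0.492 after sham treatment and 2.86 ± 0.306 after bleomycin, and the ranges overlapped at both ages.

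Markers of cell types were set beside these genes, and no association between them was tested. The 5 aerocyte markers Car4, Ednrb, Apln, Tbx2 and Fibin were all called lower in Young Bleo against Young Sham, with a median log2 fold change of -1.98. DESeq2 called 2 of them lower in Aged Bleo against Young Sham (edgeR called 0, and all 5 had an unadjusted p under 0.05), and against Aged Sham it called 0 (3 at an unadjusted p under 0.05; edgeR called 0), with a median of -1.22. Their summed FPKM was 1410 to 1904 in Young Sham, 192 to 877 in Young Bleo, 1082 to 1708 in Aged Sham and 179 to 1193 in Aged Bleo. In Young Bleo replicate 20, with the highest Ocln and the lowest Jam2 of its group, this sum was 877, against 192 to 375 in the other 3. In Aged Bleo it was 179 and 318 in replicates 1 and 2, where Jam2 was high and Cldn5 and Ocln low, and 1193 and 924 in replicates 3 and 5. Other lists, described below, split over the same libraries. Leukocyte markers summed to 1332 and 761 FPKM in Aged Bleo replicates 1 and 2 and to 338 and 192 in replicates 3 and 5. In Young Bleo they were lowest in replicate 20, at 146. Platelet markers summed to 60.9 and 206 in Aged Bleo replicates 1 and 2 and to 377 and 468 in replicates 3 and 5. In bulk RNA fewer cells of a type and less RNA per cell cannot be told apart, and the part of cell make-up in these results was not tested.

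**Figure D4:**
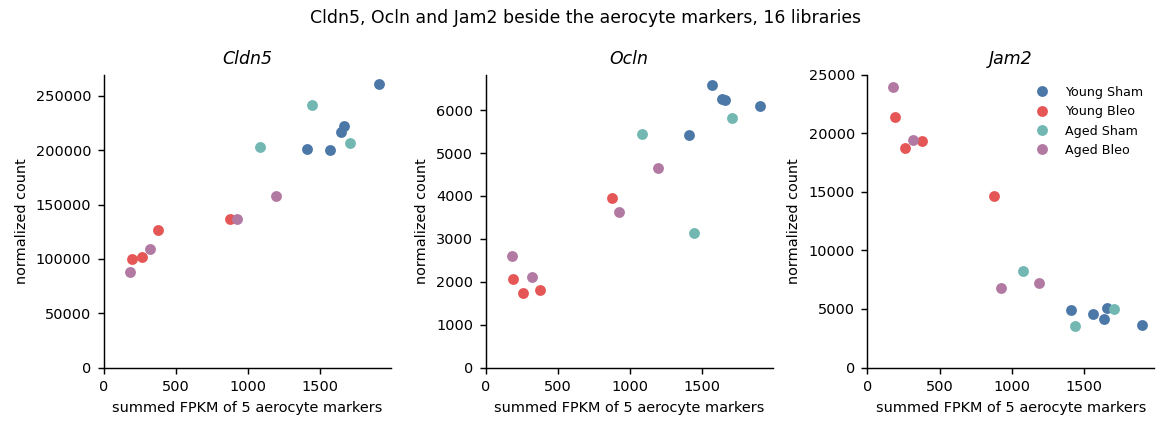
Normalized counts of Cldn5, Ocln and Jam2 against the summed FPKM of 5 aerocyte markers, 1 point per library, coloured by group. Libraries with sums of 375 or less are those with the lowest Cldn5 and Ocln and with Jam2 of at least 18752, and Aged Sham replicate 13 departs in Ocln, at 3139 beside a sum of 1442.

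General capillary markers were 507 to 729 in summed FPKM in Young Sham and 725 to 903 in Young Bleo, with 2 of 6 called higher. They were 359 to 569 in Aged Sham, with 2 of 6 called lower than in Young Sham, and 611 to 785 in Aged Bleo, with 2 of 6 called higher than in Aged Sham. The lymphatic list summed to 258 to 355 in Young Sham and 670 to 1507 in Young Bleo, with 3 of 4 called higher, and to 306 to 599 in Aged Bleo. Of 8 leukocyte markers 4 were called higher in Young Bleo, and the sum of the 8 went from 22.6 to 39.6 FPKM in Young Sham to 146 to 421 in Young Bleo and 192 to 1332 in Aged Bleo, mostly through Lyz2 and Cd68. In Aged Sham the sum was 51.7 to 161, with 2 of 8 called higher than in Young Sham by DESeq2 and 0 by edgeR (5 at an unadjusted p under 0.05 by DESeq2). Ptprc, which encodes the excluded antigen CD45, stayed at or below 0.517 FPKM in every library. From this low level it was still called higher after bleomycin. Its mean was 0.0105 FPKM in Young Sham and 0.0692 in Young Bleo (log2 fold change 2.74, DESeq2 adjusted p = 0.006). In Aged Bleo its mean was 0.242 FPKM (log2 fold change 4.57 against Young Sham, DESeq2 adjusted p = 7.1e-07). Epcam, the other excluded antigen, stayed at or below 0.798 FPKM, but the 9 epithelial markers summed to 70.5 to 650 FPKM per library, mostly through Sftpc and Scgb1a1. That sum overlapped in all groups, although 2 of them, Ager (log2 fold change -1.32, adjusted p = 0.0076) and Cldn18, were called lower in Young Bleo. No marker of these 5 lists was at 0 throughout a group.

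Platelets also carry Esam, F11r and Pecam1. The 6 platelet and megakaryocyte markers summed to 268 to 501 FPKM in Young Sham, 104 to 243 in Young Bleo, 60.9 to 468 in Aged Bleo and 610 to 3275 in Aged Sham, where DESeq2 called 4 of 6 higher than in Young Sham and edgeR 0 (all 6 had an unadjusted p under 0.05). In Aged Bleo against Aged Sham 5 of 6 were called lower by DESeq2 and 1 by edgeR. Pecam1, Esam and F11r were called in neither comparison. Mural markers summed to 27.6 to 67.7 FPKM in Young Sham, 11.5 to 31.5 in Young Bleo, 16.9 to 29.5 in Aged Sham and 8.65 to 12.0 in Aged Bleo, and against Young Sham DESeq2 called 2, 2 and 5 of 5 lower in the other groups in that order (0, 0 and 5 by edgeR, with 4, 3 and 5 at an unadjusted p under 0.05). Fibroblast markers were 13.1 to 31.8 FPKM in Young Sham, 17.8 to 30.9 in Young Bleo, 14.5 to 25.8 in Aged Sham and 6.83 to 11.7 in Aged Bleo, while the 4 mesothelial markers summed to 0.629 to 2.46 FPKM in Young Sham, a mean of 9.96 ± 5.12 (SD, n = 4) in Young Bleo, 4.50 to 13.2 in Aged Sham and 1.07 to 7.31 in Aged Bleo, with Wt1 at 0 in all Young Sham libraries. Of these 4, 3 were called higher in Young Bleo than in Young Sham and 2 in either aged group, and of the 6 fibroblast markers 4 were called lower in Aged Bleo than in Young Sham (2 by edgeR). The sum of 10 endothelial markers was 1772 to 1848 FPKM in Young Sham and lower in the other groups, at 1471 to 1656 in Young Bleo, 1461 to 1677 in Aged Sham and 1361 to 1582 in Aged Bleo. In Young Bleo against Young Sham 2 of these 10 were called higher and 3 lower. The part of these cells in the results was not tested.

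The other genes of the junction were taken as a wider list of 83, of which 75 were tested in Young Bleo against Young Sham. Of these, 13 were called higher and 15 lower, beside the 7.29% and 6.16% given above for all genes, and the median log2 fold change was 0.08. By edgeR 13 were called higher and 11 lower, beside 9.78% of all genes in either direction. After bleomycin in aged mice, against their own sham group, 9 were called higher and 6 lower of 74 tested by DESeq2, and 0 higher and 2 lower by edgeR, beside 3.39% higher and 2.44% lower of all genes, and 0.797% in either direction by edgeR. Against Young Sham, Aged Bleo had 10 higher and 9 lower (8 and 4 by edgeR), beside 6.58% and 3.14% of all genes. With age alone, where 3.35% of all genes were called, 0 were higher and 1 was lower, Cldn18, and edgeR called 0, with 13 at an unadjusted p under 0.05 by either tool.

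Among the 14 adherens junction partners 2 were called higher and 3 lower in Young Bleo against Young Sham. Nectin3, an adhesion molecule that helps cadherins gather, fell by 1.35 on the log2 scale (SE 0.289, adjusted p = 0.00011), and Vcl, which encodes vinculin, the link to actin under tension, fell by 1.34 (SE 0.280, adjusted p = 7.4e-05). Cdh13, which encodes T-cadherin, rose by 1.11 (SE 0.228, adjusted p = 5.2e-05). Ctnnb1, which encodes β-catenin, was called higher in Young Bleo at 0.76 and also in Aged Bleo, with log2 fold changes of 0.56 against Young Sham and 0.57 against Aged Sham, the latter with an edgeR adjusted p of 0.117. In Aged Bleo against Young Sham 1 partner was called higher and 3 lower by DESeq2 (1 and 0 by edgeR). Vcl had a log2 fold change of -0.85 (adjusted p = 0.028, edgeR 0.087) and Nectin3 one of -0.81 (adjusted p = 0.045, edgeR 0.109). Nectin2 was called higher in Aged Bleo against Aged Sham at 0.86 by DESeq2 (adjusted p = 0.030, edgeR 0.101).

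Among the 17 tight junction partners 3 were called higher and 4 lower in Young Bleo by DESeq2 (3 and 1 by edgeR). Lsr, which encodes angulin-1 of tricellular junctions, rose by 2.83 (SE 0.615, adjusted p = 0.00015) from a normalized count of 204 ± 88.9 (SD, n = 5) to 1449 ± 891 (SD, n = 4). Magi1, a scaffold, rose by 1.19 (SE 0.260, adjusted p = 0.00016), and the polarity gene Pard6g fell by 1.07 (SE 0.277, adjusted p = 0.0021). Lsr was also called higher in Aged Bleo against Aged Sham (log2 fold change 2.62, adjusted p = 0.0076; edgeR 0.110), with a count of 1234 ± 1241 in Aged Bleo that spread as widely as its mean.

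Among 7 other immunoglobulin adhesion genes 3 were called lower in Young Bleo and 0 higher. Cd47, a ligand of the phagocyte receptor SIRPα, fell from 44022 ± 7402 (SD, n = 5) to 17635 ± 2408 (SD, n = 4), a log2 difference of -1.32 (SE 0.165, adjusted p = 4.0e-12). It was lower also in Aged Bleo against Aged Sham, at -0.91 (SE 0.188, adjusted p = 0.00029; edgeR 0.044), and was the 1 wider gene called between the injured groups, higher in Aged Bleo by 0.62 (DESeq2 adjusted p = 0.040; edgeR 0.267). Icam2, an adhesion molecule at endothelial contacts, fell by 0.82 (SE 0.156, adjusted p = 1.0e-05) and Clmp, of the same family as the JAMs, fell by 1.36 (SE 0.293, adjusted p = 0.00014).

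Of the 4 gap junction genes, which encode channels between neighbouring cells, 3 were called higher in Young Bleo. Gja4 (connexin 37) went from 15836 ± 4018 to 43813 ± 12273, a log2 difference of 1.47 (SE 0.322, adjusted p = 0.00017). Gja1 (connexin 43) rose by 1.36 and Gja5 (connexin 40) by 1.18. Gja4 and Gja5, both connexins of arteries, were also called higher in Aged Bleo against Aged Sham by DESeq2, at 1.52 (adjusted p = 0.0023; edgeR 0.057) and 1.13 (adjusted p = 0.017; edgeR 0.086).

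The 20 regulators of VE-cadherin and Rap1 split 3 higher and 4 lower in Young Bleo, Heg1 (log2 fold change 0.63) and Csk (-0.52) among them. Tiam1, an activator of Rac, rose by 2.54 (SE 0.598, adjusted p = 0.00055), Src fell by 1.49 (SE 0.515, adjusted p = 0.030; edgeR 0.091) and S1pr1, the sphingosine phosphate receptor that tightens the barrier, fell by 0.70 (SE 0.142, adjusted p = 4.9e-05). In Aged Bleo against Aged Sham Csk, the kinase that restrains Src, also fell, by 0.82 (SE 0.133, adjusted p = 2.1e-06; edgeR 0.040), and Ptprb, which encodes the phosphatase VE-PTP of the VE-cadherin complex, rose by 0.68 (SE 0.168, adjusted p = 0.0031; edgeR 0.054). Heg1, the receptor that anchors the CCM complex at junctions, also rose, by 0.70, in Aged Bleo against Young Sham (SE 0.143, adjusted p = 5.3e-05).

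**Figure D5:**
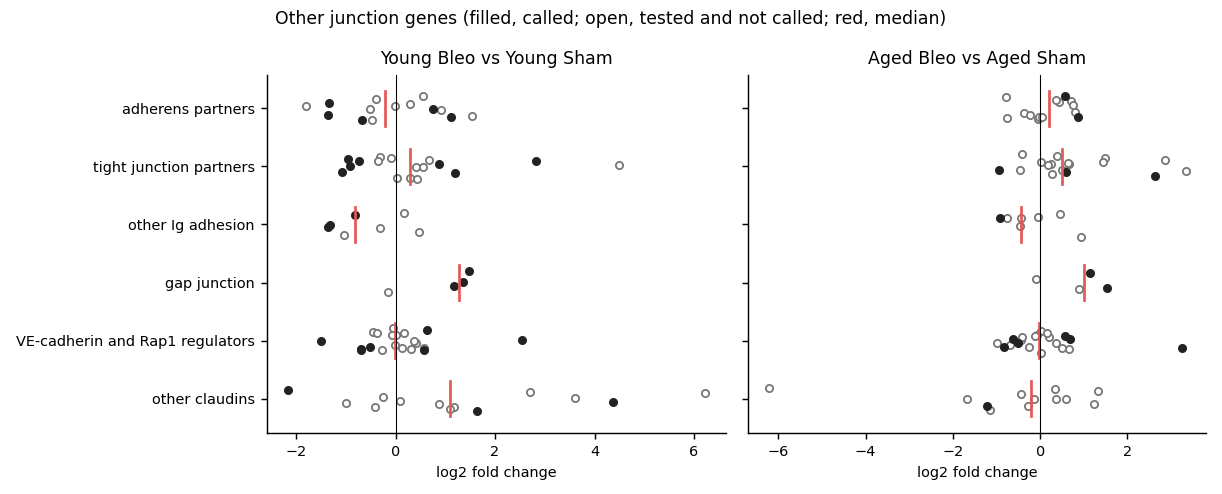
Log2 fold changes of the tested wider junction genes by list after bleomycin in young (left) and aged (right) mice. Filled points were called and red bars are medians, which in young mice run from -0.82 in other immunoglobulin adhesion genes to 1.27 in gap junction genes.

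Claudins other than Cldn5 were scarce. Of the 23 claudin genes 5 reached a mean FPKM of at least 1 and 5 had 0 counts in every library. Cldn18, the claudin of alveolar epithelium, went from 3.53 ± 0.865 FPKM in Young Sham (SD, n = 5) to 0.811 ± 0.292 in Young Bleo (SD, n = 4), a log2 difference of -2.16 (SE 0.311, adjusted p = 1.8e-09), and DESeq2 also called it lower with age alone (log2 fold change -1.13, adjusted p = 0.028; edgeR 0.134). Cldn15 rose by 1.64 in Young Bleo (SE 0.434, adjusted p = 0.0026), and Cldn3 by 1.49 in Aged Bleo against Young Sham (SE 0.400, adjusted p = 0.0043). Cldn12 averaged 1.11 FPKM. The gene listed as Cldn25, at 7.13 FPKM, has the identifier of Cldnd1 in GENCODE M21. It is left out of the 23 claudin genes and of the Cldn5 share, but it is in the wider list under other claudins, where it was not called in any comparison.

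The genes whose levels followed each member most closely were sought among 13774 genes by Pearson's r of log2(normalized count + 1) over the 16 libraries, as a description, since libraries share group, depth and make-up. For Cldn5 they were Tmem140 (r = 0.99), 3110062M04Rik (0.98) and Pllp (0.97). For Ocln they were Lyn, Scarb2 and Impdh1, each at 0.97, and for Jam2 Sparcl1 (0.99), Amd1 (0.99) and Amd2 (0.98), the last pair being near-identical copies whose reads may be split. Pecam1 was followed by Chmp7 (0.96), Vcp (0.95) and Git1 (0.95). The closest gene was Adcy8 at 0.87 for Cdh5, Tspan31 at 0.92 for Esam, Gm5560 at 0.93 for F11r, 4931406P16Rik at 0.92 for Tjp1 and Chp2 at 0.83 for Jam3.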

How the data were processed

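Per the labels and methods, the authors ran MAPRSeq, in which STAR 2.5.2b mapped read pairs to mm10 and featureCounts (Subread) assigned them to genes. The annotation release, strand setting and rule for reads mapping to several places are not given in the sources used here, and the labels and the methods name different library kits. The deposited table holds raw read counts and the FPKM values the authors derived from them, over 43346 genes and 16 libraries of 20907113 to 71035301 counts. No depth interval is given, as spread between libraries exceeded sampling noise in every replicate pair (chi-square per degree of freedom of at least 32.8).

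Counts were tested with DESeq2 1.42.0 (R 4.3.3; all 16 libraries, group as the only term, Wald test, unshrunken folds, adjustment over all genes tested) and with edgeR 4.0.16 as the first alternative (quasi-likelihood test). Other alternatives were limma voom and limma-trend (limma 3.58.1) on log2(FPKM + 0.1) and log2(FPKM + 1), other size factors, a mean count of at least 10, the compared groups alone, and each library left out. Intervals are 1.96 SE. The scripts were tested on simulated data.

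The members and lists were chosen with earlier results of these data known. Named were all members, up to 3 called genes per wider list and comparison with the highest absolute fold and a mean normalized count of at least 50, claudins of at least 1 FPKM, and the 3 genes most alike each member; for brevity some are left out. Cd99 matched no identifier, leaving 83 of 84 wider genes. Sequences are from RefSeq.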

Additional observations from a re-analysis of the deposited data

Results flagged for a closer look

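Single libraries stood apart from the rest of their group, by Dixon's test at its 95% level, in 3 of the 27 sets of 4 or 5 libraries tested, where chance gives about 1 in 20. Ocln was at 3943 in Young Bleo replicate 20, where the other libraries of the group had 1728 to 2054. Tjp1 was at 9623 in that same library, against 5780 to 6095. Jam3 was at 520 in Aged Bleo replicate 1, against 671 to 699. No cause was tested.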

How the results depend on the processing

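The calls of Cldn5, Ocln and Jam2 in Young Bleo against Young Sham held under all 8 alternative settings and with each of the 16 libraries left out in turn, as did those of Cldn5 and Jam2 in Aged Bleo against Young Sham, and no called member changed sign under any alternative. In Aged Bleo against Aged Sham the number of members called went from 2 to 0 with edgeR, limma voom and both forms of limma-trend and to 1 with the compared groups alone, and it was 1 to 2 with single libraries left out. In Aged Bleo against Young Bleo it went from 1 to 0 with edgeR, limma voom and both forms of limma-trend, and was 0 to 1 with single libraries left out. For the difference of responses it was 0 to 1 with single libraries left out. The causes were not tested. Among the wider genes, edgeR called 12 in place of 19 in Aged Bleo against Young Sham and 2 in place of 15 in Aged Bleo against Aged Sham. In Young Bleo against Young Sham edgeR called 13 higher and 11 lower, where DESeq2 called 13 and 15. No paired analysis was possible because the groups share no replicate numbers. The groups hold 3 to 5 libraries each, and their number limits every comparison.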
